A study of Mus musculus with 10 samples.

Results

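Low-level DNA methylation was followed at the ends of 5 mouse genes, Pik3c2a, Ifngr2, Kdm3a, Marveld1 and Nexn, where the mean level in testis DNA was lower in the arsenic libraries than in the control libraries. The genes were picked from the arsenic and control levels themselves, so that difference is described here and not tested. All cytosines of the deposited table within 2000 bp of either end of each gene were taken, 348 of 1988759 in the table, and the 5 genes stand among 14221 protein-coding genes with at least 3 measured CpGs at an end. Reduced representation bisulfite sequencing, which reads the methylation of CpG-rich parts of the genome after unmethylated cytosines are converted, had been done on testis DNA of F2 mice, with 5 libraries labelled arsenic-treated and 5 labelled control. The labels give neither strain, age, dose nor which generation met arsenic, and do not say whether each library came from its own animal. P-values therefore measure the spread between libraries, which may be technical.

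In mammals most CpGs carry methyl groups, while CpG-rich stretches at gene starts, the CpG islands, usually stay unmethylated. Germ cells make up most of the adult testis, and a low level at a CpG island is a minority of methylated reads in a mixed population of DNA molecules. In bulk tissue a larger share of cells with a methylated copy cannot be told apart from more methylated CpGs per copy. The 5 genes have unrelated roles. Pik3c2a encodes a class II phosphoinositide 3-kinase that works in endocytosis and membrane traffic. Ifngr2 encodes the signalling chain of the interferon gamma receptor. Kdm3a encodes a JmjC histone demethylase that removes methyl groups from histone H3 and is needed for the packing of sperm chromatin in mice. Marveld1 encodes a small protein with a MARVEL domain, and Nexn encodes nexilin, an actin-binding protein of the muscle Z-disc.

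Sequences of 3 promoters show which CpGs were read at Pik3c2a, Kdm3a and Ifngr2. They are RefSeq sequences of build GRCm38.p6, the build also called mm10, on the strand of the gene, 5′ to 3′. Capitals mark CpGs with at least 1 covered cytosine, and the rest, uncovered CpGs included, is in lower case. The promoter of Pik3c2a is chr7:116443409-116443708 on the minus strand, that of Kdm3a, one of several listed, chr6:71632637-71632936 on the minus strand, and that of Ifngr2 chr16:91546809-91547108 on the plus strand.
Pik3c2a promoter: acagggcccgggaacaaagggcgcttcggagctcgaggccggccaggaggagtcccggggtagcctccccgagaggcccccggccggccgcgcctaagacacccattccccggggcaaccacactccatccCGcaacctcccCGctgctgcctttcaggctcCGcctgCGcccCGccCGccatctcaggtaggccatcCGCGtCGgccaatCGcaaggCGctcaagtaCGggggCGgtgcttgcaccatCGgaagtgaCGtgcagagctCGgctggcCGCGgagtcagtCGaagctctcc
Kdm3a promoter: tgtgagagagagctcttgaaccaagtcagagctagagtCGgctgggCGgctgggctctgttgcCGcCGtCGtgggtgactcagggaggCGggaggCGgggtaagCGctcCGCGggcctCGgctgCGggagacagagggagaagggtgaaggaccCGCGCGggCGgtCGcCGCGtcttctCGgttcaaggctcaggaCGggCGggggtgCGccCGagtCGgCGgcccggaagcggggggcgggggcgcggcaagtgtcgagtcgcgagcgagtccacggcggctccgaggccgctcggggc
Ifngr2 promoter: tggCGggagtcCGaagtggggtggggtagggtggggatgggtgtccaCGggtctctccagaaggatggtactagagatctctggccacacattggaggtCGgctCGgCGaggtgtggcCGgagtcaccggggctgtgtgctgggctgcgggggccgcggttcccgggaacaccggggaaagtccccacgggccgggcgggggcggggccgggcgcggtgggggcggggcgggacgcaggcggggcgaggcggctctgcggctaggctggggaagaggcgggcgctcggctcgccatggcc

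Of 31 CpGs in the Pik3c2a promoter 19 were covered, none of them in the far upstream stretch, where the CCGG motifs of this promoter lie. In the Kdm3a sequence 26 of 40 CpGs were covered, in one block. In the Ifngr2 promoter 7 of 31 were covered, at the far upstream end, and the CpG-dense stretch before the start was not read. The 300 bp promoter of Marveld1 held 12 CpGs and 0 covered ones, since its covered cytosines all lie further inside the gene. All covered positions in these promoters were CpGs of the sequence. The motif CCGG, which reads the same on both strands, occurred 6 times in the Pik3c2a promoter, 1 time in that of Kdm3a and 6 times in that of Ifngr2, and 52.8% of the 32851 mouse promoters in the table hold it.

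The depth was 69771871 to 100355708 reads summed over cytosines per library, with a median coverage of 35 to 40 reads per cytosine in the arsenic libraries and 27 to 36 in the control libraries. Each cytosine had at least 10 reads in every library. Control libraries 4 and 5 stood apart: 16.9% and 18.8% of their cytosines were fully methylated, against 11.1% to 14.9% in the others. Imprinted genes with regions methylated on the maternal allele, which are unmethylated in male germ cells, were read within 500 bp of the end with more covered CpGs. These gene ends averaged 8.59% ± 0.701 in the arsenic libraries and 8.53% ± 3.26 in the control libraries (SD, n = 5 each, 11 of 16 genes measured). Whether they hold the imprinted regions themselves was not checked. The arsenic range was 7.64% to 9.29% and the control range 4.50% to 12.0%, so the libraries differed more among controls. Over all measured gene ends the mean was 16.8% ± 0.174 in arsenic and 17.2% ± 0.591 in control, with control libraries 4 and 5 highest.

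Each gene was covered mainly at one end. Within 2000 bp of that end, Pik3c2a, Kdm3a and Marveld1 averaged about 1% or less in arsenic libraries and 4.71% to 7.40% in control libraries, while Ifngr2 and Nexn had higher levels in both groups, with methylated CpGs outside the gene in their windows. All 5 means were lower in arsenic. Of all 22577 gene ends measured with this window, 56.9% had the lower mean in arsenic, so a lower mean alone is common in these libraries. The 5 arsenic levels all lay under the 5 control levels at Pik3c2a and Marveld1, a pattern found at 0.576% of gene ends, and at 0.328% in the opposite direction. Since this contrast chose the genes, nothing is read from their count. Without control libraries 4 and 5 the difference, arsenic minus control, was -5.55 percentage points at Pik3c2a, -4.04 at Ifngr2, -3.93 at Kdm3a, -3.86 at Marveld1 and -2.07 at Nexn, against -6.34, -5.87, -5.60, -3.86 and -2.66 with all 10 libraries.

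No gene end passed the test over the whole table. A gene end or cytosine was called at an adjusted p (Benjamini-Hochberg) under 0.05 and a level difference of 10 or more percentage points. For this difference the reads of each group were pooled. An end with a control level under 10% cannot be called with arsenic lower, whatever its p. This holds for all 5 genes in windows of 1000 bp. The quasi-binomial model called 0 of 14221 gene ends (0%) in windows of 1000 bp, and 909 had an unadjusted p under 0.05. The lowest adjusted p among the 14221 was 0.243, so none was lost to the size threshold alone. The same model called 0 of 22577 (0%) in windows of 2000 bp and 0 of 1988759 single cytosines (0%), with an unadjusted p under 0.05 at 141458 cytosines. Limma, run on the log2 ratio of methylated over unmethylated reads, called 1 gene end, Xlr5c, which is not among the 5 genes, and 0 cytosines.

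**Figure D1:**
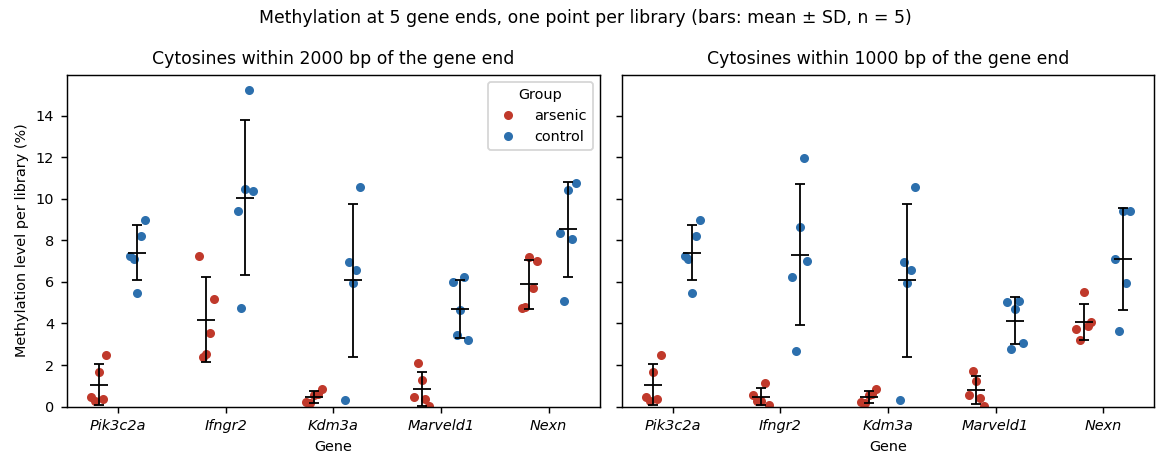
Methylation level in percent of reads (vertical axis, linear) at the covered end of each gene, for all cytosines within 2000 bp (left) and 1000 bp (right); each point is a library, arsenic left of control, and bars give the mean ± SD of 5 libraries. Control library 1 at Kdm3a lies among the arsenic points at 0.300%, and the overlap at Ifngr2 on the left is gone on the right.

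Pik3c2a (chromosome 7, 116337265 to 116443465) was covered at its upper end by 67 cytosines in 45 CpGs, from 348 bp inside the gene to 382 bp outside it. The other end had no covered cytosine. The level was 0.464%, 0.289%, 1.67%, 0.364% and 2.50% in arsenic libraries 1 to 5, against 7.27%, 7.10%, 5.45%, 8.19% and 8.97% in control libraries 1 to 5. Arsenic libraries 3 and 5 were the higher of their group, and no arsenic level reached the lowest control level. The means were 1.06% ± 0.986 in arsenic and 7.40% ± 1.32 in control (SD, n = 5 each), a difference of -6.34 percentage points, with 1384 to 2751 read calls behind each arsenic level and 1427 to 2293 behind each control level. A read call here is one read at one cytosine, so a read that spans several CpGs is counted several times.

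The control methylation of Pik3c2a lay close around the gene end. The 50 cytosines from 156 bp inside to 112 bp outside held 92.1% of the methylated control calls and 74.6% of the cytosines, and stood at 0.974% ± 1.06 in arsenic and 8.85% ± 1.95 in control. Within that stretch the 8 minus-strand cytosines from 156 to 83 bp inside had no methylated read in any control library. The next on that strand, 65 bp inside, stood at 13.1% ± 14.1 in arsenic and 12.3% ± 8.25 in control, with the higher mean in arsenic. The 14 plus-strand cytosines from 348 to 241 bp inside the gene stood at 1.03% ± 1.02 in arsenic and 1.11% ± 0.840 in control. The inner stretch was thus near 1% in both groups. Its innermost cytosine, 348 bp inside, stood higher, at 5.42% ± 9.63 in arsenic and 7.59% ± 8.13 in control. The 3 cytosines 378 to 382 bp outside the gene stood at 3.16% ± 4.82 in arsenic and 9.27% ± 10.9 in control, with overlapping levels.

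At single cytosines of Pik3c2a, 48 of 67 had the lower mean in arsenic and 7 the higher one, while 49.5% of all cytosines in the table had the lower mean in arsenic. No methylated read was seen in any arsenic library at 30 cytosines, and in any control library at 18. The highest control mean was at the minus-strand cytosine 112 bp outside the gene, at 0.833% ± 1.86 in arsenic and 18.2% ± 14.5 in control, where control library 4 had 0 methylated of 10 reads. The next were those 25 and 9 bp outside, at 0.889% ± 1.99 and 0.851% ± 1.90 in arsenic and 16.4% ± 13.0 and 16.4% ± 11.4 in control. Levels of single CpGs thus varied widely between control libraries even where the window level did not. Groups did not overlap at 2 of the 67 cytosines (2.99%), which lay 37 and 7 bp inside the gene on the plus strand, against 0.3% of all cytosines with arsenic lower and 0.228% with arsenic higher.

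**Figure D2:**
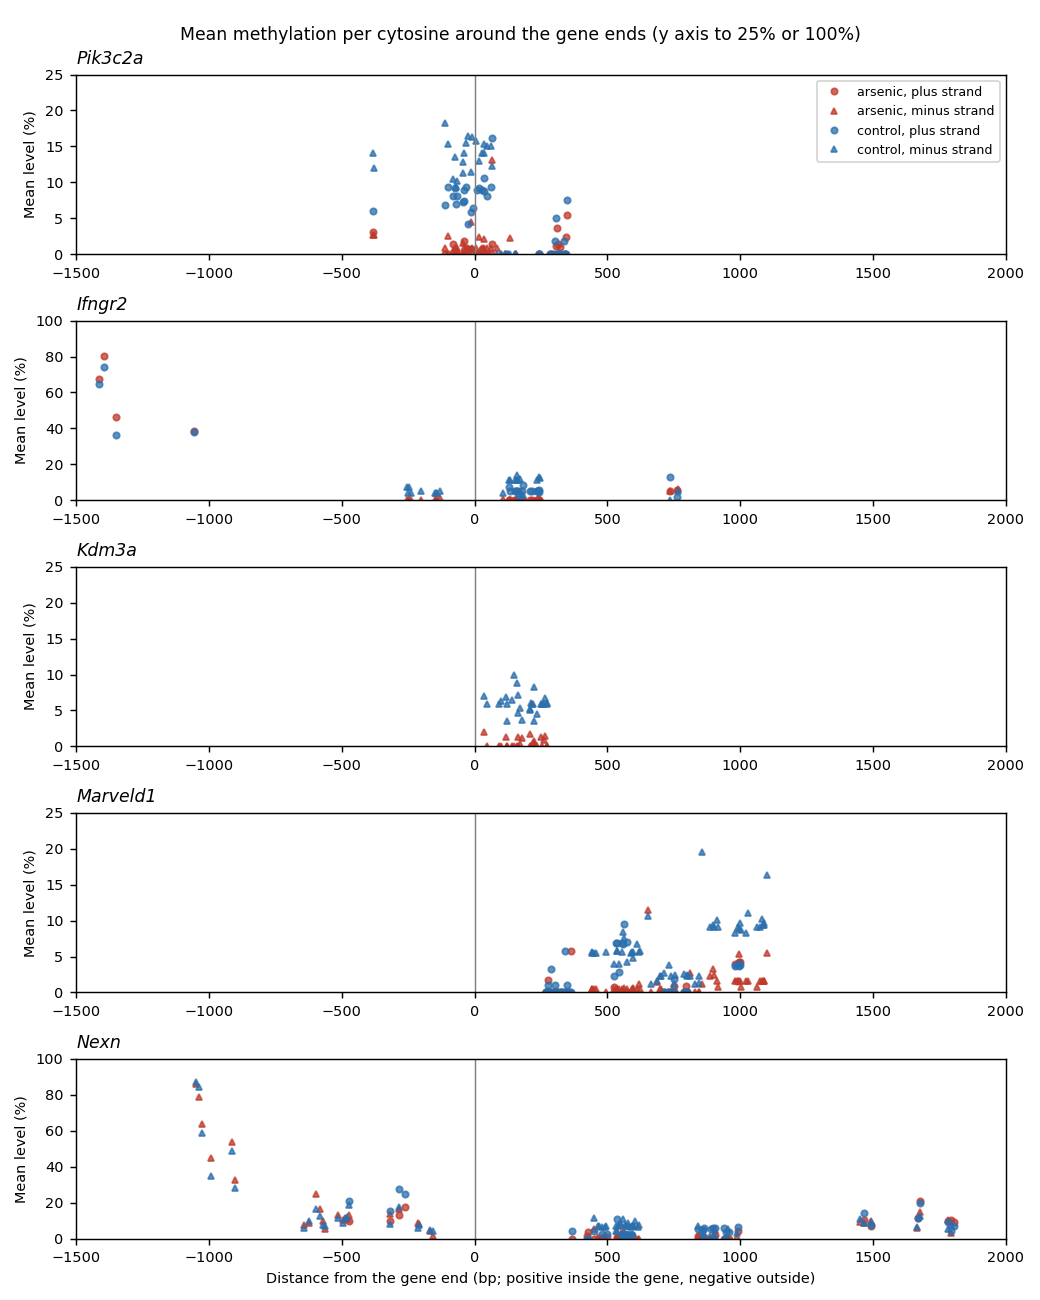
Mean level per cytosine in percent (vertical axis, to 25% for Pik3c2a, Kdm3a and Marveld1 and to 100% for Ifngr2 and Nexn) against the distance from the gene end in bp (positive inside the gene), with arsenic in red and control in blue, circles for the plus and triangles for the minus strand. Most control points lie above the arsenic points from 66 bp inside to 112 bp outside the gene at Pik3c2a and, mainly on the minus strand, from 1099 to 440 bp inside at Marveld1, while the highest points of Ifngr2 and Nexn lie far outside the gene and are alike in both groups.

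Ifngr2 (chromosome 16, 91547059 to 91564007) was covered at its lower end by 46 cytosines in 32 CpGs, from 764 bp inside to 1413 bp outside. The level within 2000 bp was 7.26%, 2.39%, 2.54%, 3.56% and 5.16% in arsenic libraries 1 to 5, against 9.42%, 4.75%, 10.5%, 15.2% and 10.4% in control libraries 1 to 5. Arsenic libraries 1 and 5 lay above control library 2, so the groups overlapped. The means were 4.18% ± 2.05 in arsenic and 10.1% ± 3.73 in control. Within 1000 bp the levels were 0.554%, 0.278%, 0.269%, 1.13% and 0.0958% in arsenic libraries 1 to 5, and 6.24%, 2.69%, 8.65%, 12.0% and 6.99% in control libraries 1 to 5. The overlap was absent in that narrower window, as at 0.661% of all gene ends with arsenic lower and 0.281% with arsenic higher, and the means were 0.465% ± 0.406 in arsenic and 7.31% ± 3.39 in control.

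The wider window of Ifngr2 mixes an island with methylated flanking CpGs. The 29 cytosines from 245 to 108 bp inside the gene held 1.89% of the methylated arsenic calls and 52.4% of the methylated control calls, and stood at 0.109% ± 0.172 in arsenic and 7.90% ± 5.92 in control. Control library 2 had no methylated read there, as had arsenic libraries 3, 4 and 5, so the groups overlapped in this stretch. At the coverage of these arsenic libraries a count of 0 at 1 cytosine allows a level of up to 7.5% to 25%. Such limits cover counting error only, since the labels name no molecular identifiers.

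The covered CpGs in the Ifngr2 promoter shown above fall in the next stretch, 9 minus-strand cytosines from 131 to 255 bp outside the gene. They stood at 0.0763% ± 0.171 in arsenic, where 4 of 5 libraries had no methylated read, and at 5.27% ± 5.67 in control. Control library 5 had none there either, and control library 1 was highest, at 13.7%. The controls high in one stretch were thus not always those high in the other. The 3 plus-strand cytosines 1352 to 1413 bp outside stood at 64.7% ± 5.99 in arsenic and 58.7% ± 7.09 in control, and held 73.9% of the methylated arsenic calls and 26.9% of the methylated control calls.

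The 3 CpGs of Ifngr2 with the highest control means were all far upstream. The cytosine 1394 bp outside stood at 80.5% ± 9.70 in arsenic and 74.2% ± 18.1 in control, that 1413 bp outside at 67.3% ± 11.9 and 65.0% ± 17.6, and that 1058 bp outside at 38.8% ± 16.0 and 38.1% ± 22.0, arsenic first in each pair. The groups were mixed at all of these. Of the 46 cytosines, 39 had the lower mean in arsenic and 7 the higher, 0 did not overlap, 34 had no methylated read in any arsenic library and 1 had none in any control library. At the other end of the gene 2 cytosines stood at 93.2% ± 4.83 in arsenic and 96.3% ± 6.37 in control.

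Kdm3a (chromosome 6, 71588970 to 71632990) was covered at its upper end by 28 cytosines, all on the minus strand, in a single block from 274 to 35 bp inside the gene. The other end had none. The level was 0.211%, 0.147%, 0.551%, 0.588% and 0.847% in arsenic libraries 1 to 5, against 0.300%, 6.95%, 5.95%, 6.58% and 10.6% in control libraries 1 to 5. Control library 1 lay within the arsenic levels, and the other 4 control libraries were all above them. The means were 0.469% ± 0.289 in arsenic and 6.07% ± 3.70 in control.

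All 28 cytosines of Kdm3a had the lower mean in arsenic. The control means stayed in a narrow band along the block, 3.56% to 9.97%, and the arsenic means reached at most 1.98%. The highest control means were 149, 158 and 223 bp inside the gene. The first of these had 0 methylated of 256 reads over the arsenic libraries and 21 of 208 over the control libraries, the next 0 of 311 and 20 of 235, and the last 1 of 158 and 11 of 126, arsenic first in each pair. No methylated read was seen in any arsenic library at 16 of the 28 cytosines, and at 0 cytosines was it missing from all control libraries.

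The methylated reads of Kdm3a came in repeated numbers along the block. In control library 2, 17 of 28 cytosines had exactly 3 methylated reads and 5 had 6. In control library 5, 17 had 3 and 6 had 6. In control library 3, 19 had 1 methylated read and 6 had 2, and in control library 4, 21 had 1 and 3 had 2. Control library 1 had 1 methylated read at each of 2 cytosines and none at the others, while the arsenic libraries had any at 2, 1, 5, 2 and 4 cytosines in libraries 1 to 5.

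Coverage was close to doubled over part of the block. At the 7 cytosines from 178 to 142 bp inside, picked because their coverage was over 1.5 times the median of the block, the median number of reads was 1.85 to 1.93 times that at the other 21 in each library, for example 67 against 35 in arsenic library 5 and 82 against 43 in control library 2. Whether mates or neighbouring fragments overlap there was not tested. The table does not record which reads were counted at each cytosine. A level near 6% over 28 cytosines therefore came with 1 to 3 methylated reads at most positions of each of the 4 control libraries, and the calls at neighbouring cytosines cannot be taken as separate observations.

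**Figure D3:**
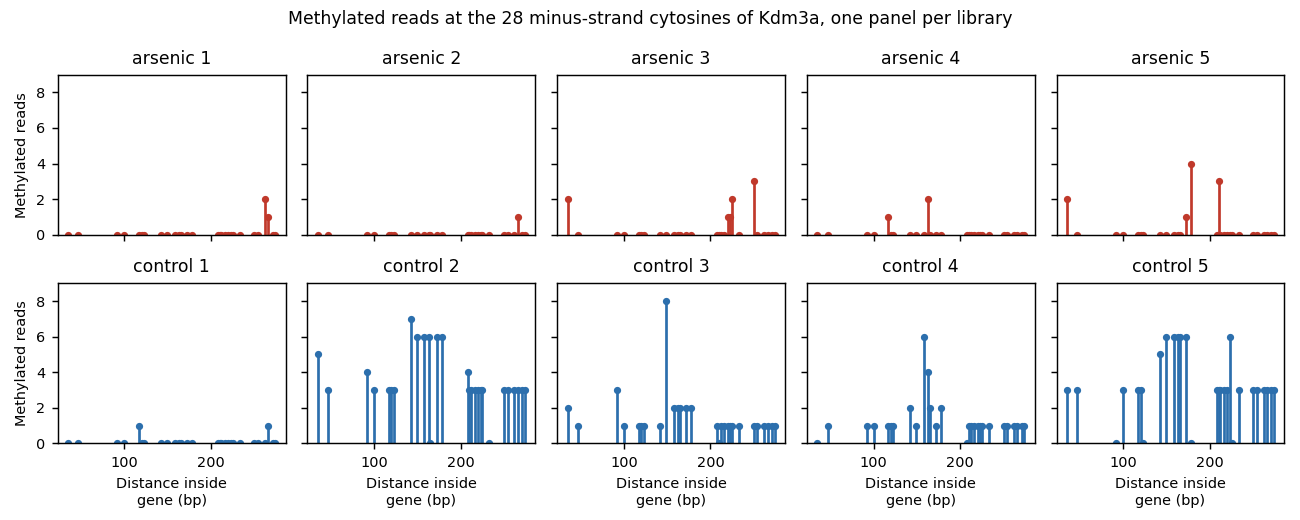
Number of methylated reads (vertical axis) at each of the 28 minus-strand cytosines of Kdm3a against the distance inside the gene in bp, one panel per library, arsenic above and control below. Control libraries 2 and 5 show long runs at 3 and a block at 6, control libraries 3 and 4 runs at 1, and control library 1 is as empty as the arsenic panels.

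Marveld1 (chromosome 19, 42147389 to 42151703) was covered at its lower end by 95 cytosines in 74 CpGs, from 1099 to 267 bp inside the gene. The level was 0.472%, 2.10%, 1.26%, 0.377% and 0.0391% in arsenic libraries 1 to 5, against 6.01%, 3.46%, 4.65%, 6.22% and 3.19% in control libraries 1 to 5. Arsenic library 2 was the highest of its group and control library 5 the lowest of the controls, and the groups did not overlap. The means were 0.849% ± 0.829 in arsenic and 4.71% ± 1.40 in control, a difference of -3.86 percentage points. Arsenic library 5 had 1 methylated call over all 95 cytosines.

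Most methylated control calls of Marveld1 lay deep in the gene, as did most covered cytosines and all 57 on the minus strand. Distance and strand are therefore partly mixed here. The 78 cytosines from 1099 to 440 bp inside held 98.1% of the methylated control calls and 82.1% of the cytosines. They stood at 0.907% ± 0.838 in arsenic and 5.41% ± 1.89 in control, with no overlap. This contrast chose the gene, so the missing overlap restates that choice, and how often such stretches do not overlap was not counted. Within this stretch the plus-strand cytosines 712, 729 and 739 bp inside had no methylated read in any library. That 562 bp inside stood at 0% in arsenic and 9.52% ± 14.7 in control. The 17 plus-strand cytosines from 362 to 267 bp inside, nearer the gene end, stood at 0.398% ± 0.890 in arsenic and 0.726% ± 0.726 in control. Within 500 bp of the end the difference was accordingly smaller, at 0.451% in arsenic and 1.48% in control (-1.03 percentage points).

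The minus-strand cytosine 856 bp inside Marveld1 had the highest control mean, at 1.20% ± 1.75 in arsenic and 19.6% ± 18.2 in control. It was the 1 of 95 cytosines (1.05%) at which the groups did not overlap, against 0.3% of all cytosines with arsenic lower and 0.228% with arsenic higher. The control mean there was raised by control library 1, with 8 methylated of 16 reads. The cytosines 1099 and 1029 bp inside followed, at 5.54% ± 8.74 and 1.54% ± 3.44 in arsenic and 16.3% ± 9.68 and 11.1% ± 8.91 in control. In all, 70 cytosines had the lower mean in arsenic and 9 the higher, 42 had no methylated read in any arsenic library and 19 had none in any control library. At the other end 5 cytosines, 861 to 1211 bp outside the gene, stood at 32.2% ± 8.90 in arsenic and 36.3% ± 7.21 in control.

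Nexn (chromosome 3, 152236982 to 152266350) was covered at its upper end by 103 cytosines in 71 CpGs, from 1804 bp inside to 1048 bp outside. The level within 2000 bp was 4.73%, 4.78%, 7.21%, 5.69% and 6.99% in arsenic libraries 1 to 5, against 8.37%, 5.06%, 10.4%, 8.07% and 10.7% in control libraries 1 to 5. Control library 2 lay among the arsenic libraries, and the groups overlapped. The means were 5.88% ± 1.18 in arsenic and 8.54% ± 2.28 in control, the smallest difference of the 5 genes at -2.66 percentage points.

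The lower arsenic level of Nexn sat in an inner part of the window. The 40 cytosines from 617 to 368 bp inside stood at 0.867% ± 0.514 in arsenic and 5.26% ± 3.37 in control, and the 22 from 990 to 839 bp inside at 0.719% ± 0.392 in arsenic and 3.95% ± 5.05 in control. Groups did not overlap in either stretch, by a narrow margin. In the first the highest arsenic level was 1.41% and the lowest control level 1.58%, in library 5, and in the second they were 1.21% and 1.23%, in control library 2. In the second stretch 4 control libraries stood at 1.23% to 2.36% and control library 5 at 12.9%, so 1 library made most of that control mean. These 62 cytosines together stood at 0.796% ± 0.331 in arsenic and 4.84% ± 2.18 in control. They are the covered cytosines of the 1000 bp tile by which Nexn was chosen. The difference and the missing overlap in these stretches therefore restate that choice. How often stretches of this size do not overlap was not counted.

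Further in and outside, the levels of Nexn differed little between the groups. The 3 stretches from 1804 to 1451 bp inside the gene stood at 8.66% to 13.5% in arsenic and 6.98% to 12.9% in control. Outside the gene, 157 to 320 bp away, the level was 11.2% ± 5.15 in arsenic and 13.3% ± 3.87 in control. At 994 to 1048 bp it was far higher in both groups, 68.2% ± 8.40 in arsenic and 66.2% ± 8.60 in control. The 3 CpGs with the highest control means were 1048, 1037 and 1025 bp outside, at 85.7% ± 9.13, 78.7% ± 10.6 and 63.5% ± 18.5 in arsenic and 87.3% ± 6.20, 84.3% ± 13.7 and 59.0% ± 24.6 in control. The window therefore runs from an island low in both groups to methylated CpGs high in both.

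Of the 103 cytosines of Nexn, 77 had the lower mean in arsenic and 24 the higher, and 0 did not overlap. No methylated read was seen in any arsenic library at 32 and in any control library at 4. The 2 cytosines near the other end stood at 96.0% ± 4.83 in arsenic and 97.5% ± 5.59 in control. That window also overlaps the neighbouring gene Fubp1, and the covered end overlaps the predicted gene Gm31999, so these cytosines are near more than 1 gene.

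The spread between control libraries was set beside that of other gene ends of similar level. The set held the 2168 gene ends with a control mean of 4% to 10% and at least 10 covered CpGs in windows of 1000 bp. Their median SD was 1.90 percentage points over the arsenic libraries and 3.25 over the control libraries. The ends were picked on the control mean alone, so a gap between these medians may be partly built in, and nothing is read from it. All 5 genes are in this set. The SD of the 5 genes over control libraries ran from 1.12 at Marveld1 to 3.70 at Kdm3a. It lay below the control median of 3.25 at Marveld1, Pik3c2a and Nexn and above it at Ifngr2 and Kdm3a. In this set 77 ends had an arsenic mean under 1.1%. At 26 of the 2168 the groups did not overlap with arsenic lower. Over all 14221 gene ends this held at 94 (0.661%), and at 0.281% with arsenic higher. The set was picked on the control mean, which can favour such ends, so no excess is read from the 26. Low arsenic levels beside control levels of this size were thus not limited to the genes described. The counts of 77 and 26 include some of the 5 genes, and no matching set picked on the arsenic mean was counted. Whether low arsenic levels beside higher control levels were commoner than the reverse was therefore not tested with this set.

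Which strand carried the methylated reads was not used in choosing the genes and could be tested. The levels of the plus and minus strands were compared at CpGs covered on both, with an exact two-sided sign-flip test over the 10 libraries, whose smallest possible p is 0.00195, and Benjamini-Hochberg adjustment over the 4 genes with such CpGs. Kdm3a had none. No strand difference passed. At Pik3c2a (22 CpGs) plus minus minus strand averaged -3.45 ± 9.47 percentage points (SD, n = 10, exact p = 0.303, adjusted p = 0.605), with the minus strand higher in 8 of 10 libraries. At Nexn (32 CpGs) it averaged 2.15 ± 3.62 (exact p = 0.0430, adjusted p = 0.172), with the plus strand higher in 8 of 10. At Ifngr2 (14 CpGs) it averaged -1.67 ± 9.90 (exact p = 0.727, adjusted p = 0.727) and at Marveld1 (21 CpGs) -0.808 ± 4.82 (exact p = 0.633, adjusted p = 0.727). These means hide gaps of either sign, and do not show that the strands were alike.

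Within a control library the strands often disagreed at the same CpGs. At Pik3c2a, control library 2 stood at 1.25% on the plus and 23.7% on the minus strand, while control library 4 stood at 16.6% on the plus and 1.41% on the minus strand. At Ifngr2, control library 4 stood at 3.45% on the plus and 31.0% on the minus strand, and control library 5 at 12.4% and 0.976%, plus strand first. At Marveld1, control libraries 3 and 4 had 0% on the plus strand and 8.40% and 9.21% on the minus strand, while control library 5 had 8.18% on the plus and 1.15% on the minus strand. The strand with the methylated reads thus differed from library to library. The median absolute gap between strands was 0.503 percentage points in arsenic libraries and 9.07 in control libraries at Pik3c2a, 0.769 and 3.61 at Ifngr2, 1.33 and 7.03 at Marveld1 and 1.56 and 1.94 at Nexn, arsenic first in each pair. Where the level is near 0 on both strands the gap cannot be large.

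Strand by strand, at the CpGs covered on both, the groups did not overlap on the plus strand of Pik3c2a only. Overlap was not counted at these same CpGs with both strands summed, so the window levels are no like comparison. How often single strands do not overlap at other gene ends was not counted either, and this contrast chose the genes. On the plus strand of Pik3c2a the levels were 0.613%, 0.503%, 0.720%, 0.196% and 0.391% in arsenic libraries 1 to 5, against 7.22%, 1.25%, 3.22%, 16.6% and 11.6% in control libraries 1 to 5, without overlap. On its minus strand they were 0.620%, 0%, 3.99%, 0.391% and 4.60% in arsenic libraries 1 to 5, against 16.3%, 23.7%, 11.8%, 1.41% and 14.1% in control libraries 1 to 5, where control library 4 lay among the arsenic libraries. Both strands of Ifngr2, Marveld1 and Nexn overlapped between the groups.

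**Figure D4:**
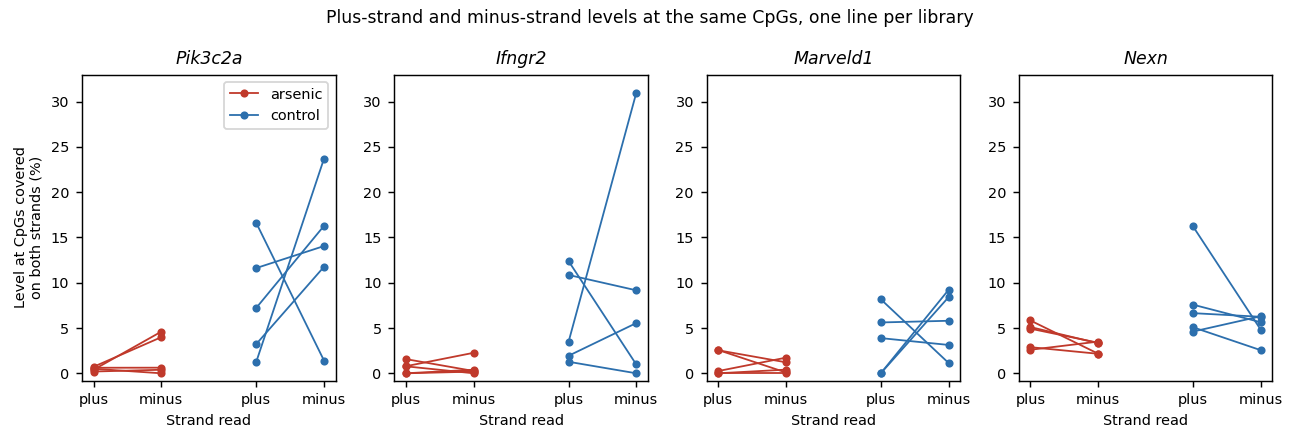
Level in percent (vertical axis) on the plus and the minus strand at CpGs covered on both strands, one line per library, arsenic left of control in each panel. The arsenic lines stay low and nearly flat at Pik3c2a, Ifngr2 and Marveld1, and the control lines cross, as at Pik3c2a, where control library 2 is at 23.7% on the minus strand and control library 4 at 1.41%.

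Repeated methylated counts as at Kdm3a were also seen at other members, counted over a strand whether or not the cytosines were neighbours. On the plus strand of Ifngr2, 16 of 22 cytosines had exactly 4 methylated reads in control library 3 and 14 in control library 5. In control libraries 1, 2 and 4 the commonest count there was held by only 2, 2 and 5 cytosines. On its minus strand, 15 of 24 had 2 in control library 1. On the minus strand of Marveld1, 22 of 57 had 4 in control library 3, and in control library 4, 20 had 1. The repeated number was not the same in all libraries. In the libraries named with such repeats, it was held by most of the strand's cytosines at Ifngr2 but not at Marveld1.

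Pairs of neighbouring cytosines up to 100 bp apart on a strand, of which at least 1 had a methylated read, were counted over all libraries. The 2 counts were equal in 40.6% of pairs at Pik3c2a, 59.8% at Ifngr2, 52.2% at Kdm3a, 52.0% at Marveld1 and 27.4% at Nexn, against 29.6% over the 695050 cytosines of the table with a mean level under 15%. Pik3c2a, Ifngr2, Kdm3a and Marveld1 thus had a larger share of equal neighbours than low-level cytosines in general, and Nexn did not. Even counts made up 92.5% of the methylated counts above 0 at Ifngr2, 76.5% at Pik3c2a, 68.8% at Nexn, 63.2% at Marveld1 and 26.1% at Kdm3a, against 65.2% over the same low-level cytosines, whose coverage was even in 59.6%. Whether duplicate reads or both mates of a pair were counted was not tested. These shares are descriptions with no test, since neighbours share reads and the genes were chosen for their levels.

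Genes of the same family or pathway as each of the 5 were taken from lists drawn up by function. The 5 genes themselves were left out, and windows of 1000 bp were used. The quasi-binomial model called 0 members of each list. Over all measured ends 8313 (58.5%) were lower in arsenic and 5901 higher, with a median difference of -0.291 percentage points. Without control libraries 4 and 5 that median was 0.0969, so the small overall shift changed sign.

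Among class II and III phosphoinositide 3-kinase and phosphoinositide genes, 5 of 10 measured ends were lower in arsenic and 5 higher (median -0.580, but 0.0953 without control libraries 4 and 5 and 0.206 in windows of 500 bp). The extremes were Mtmr2, a phosphoinositide phosphatase, at 92.7% ± 3.59 in arsenic and 95.7% ± 3.77 in control, and Pi4kb, a phosphatidylinositol 4-kinase, at 4.72% ± 5.11 and 1.84% ± 1.49, arsenic first. Their adjusted p were 0.912 and 0.846. Pik3c2b, the closest relative of Pik3c2a in the list, stood at 3.43% ± 1.87 in arsenic and 1.81% ± 1.38 in control, the opposite order to Pik3c2a. It was chosen as its relative after the values were seen, and its adjusted p was 0.832.

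Among interferon gamma receptor signalling genes, 10 of 13 ends were lower and 3 higher (median -0.754, and -0.136 without control libraries 4 and 5, but 0.650 in windows of 500 bp). Ifnar2 and Il10rb, receptor chain genes that lie side by side, share the same 21 CpGs and are 2 of the 10 lower ends. The ligand gene Ifng stood at 68.0% ± 6.15 in arsenic and 71.6% ± 5.46 in control (adjusted p = 0.893, quasi-binomial model), and the transcription factor gene Irf9 at 59.7% ± 2.11 in arsenic and 56.1% ± 3.67 in control (adjusted p = 0.803). Ifngr1, which encodes the ligand-binding chain that pairs with Ifngr2 and was also chosen after its value was seen, stood at 3.57% ± 6.36 in arsenic and 6.59% ± 3.21 in control.

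Among JmjC histone demethylase genes, 8 of 14 ends were lower and 6 higher (median -0.0491, but 0.221 without control libraries 4 and 5 and 0.0362 in windows of 500 bp). The Y-linked Kdm5d stood at 17.7% ± 6.67 in arsenic and 23.1% ± 9.43 in control (adjusted p = 0.875, quasi-binomial model), and Kdm2a at 5.73% ± 6.99 in arsenic and 0.432% ± 0.466 in control (adjusted p = 0.777). At Kdm5d the SD of each group exceeds the difference. At Kdm2a only the arsenic SD does, with arsenic libraries 2 and 5 at 14.1% and 12.5%. Among MARVEL domain genes, 7 of 13 ends were lower and 6 higher (median -0.315, but 0.131 without control libraries 4 and 5, and -0.279 in windows of 500 bp). Cmtm7 stood at 1.19% ± 1.66 in arsenic and 4.45% ± 7.90 in control (adjusted p = 0.843), and Cmtm5 at 94.1% ± 3.55 in arsenic and 92.5% ± 1.89 in control (adjusted p = 0.928).

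Among Z-disc and actin-binding genes of muscle, 8 of 11 ends were lower and 3 higher (median -0.663, and -0.628 without control libraries 4 and 5 and -0.283 in windows of 500 bp). Pdlim3, which encodes a Z-disc protein that binds alpha-actinin, stood at 33.9% ± 6.90 in arsenic and 41.7% ± 6.15 in control, and Actn1, an alpha-actinin gene, at 3.81% ± 4.37 in arsenic and 1.62% ± 2.17 in control. Their adjusted p were 0.777 and 0.843 in the quasi-binomial model. An unadjusted p under 0.05 in that model was found at 1 of 10 phosphoinositide ends, Becn1, which was lower in arsenic. It was also found at 2 of 14 demethylase ends, Kdm4a, lower in arsenic, and Kdm4b, higher in arsenic. The other 3 lists had 0 such genes. Over all measured ends there were 909 of 14221, so nothing is read from these counts.

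**Figure D5:**
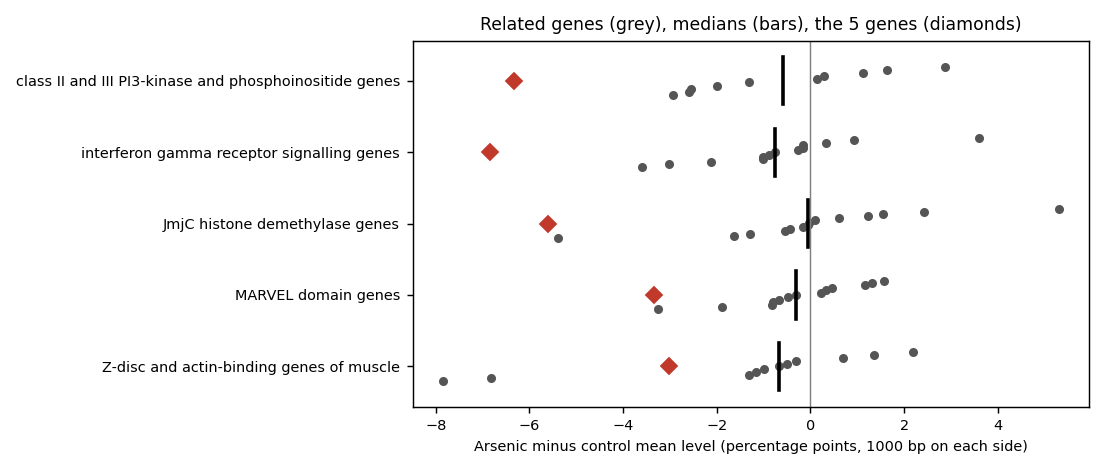
Difference in mean level, arsenic minus control, in percentage points (horizontal axis) for each measured gene of 5 function lists (grey points), with the median of each list as a black bar and the gene described here as a red diamond. The 5 genes were chosen by this difference and are drawn for scale, and the grey points lie on both sides of 0 in every list.

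The gene ends most like the 5 genes across libraries were found among 9126 ends with at least 10 CpGs and a mean level of 1% to 15%. The measure was Pearson's r over 10 libraries with the mean of the 5 levels, each scaled to its own mean, and it carries the difference between the groups. The highest were the paracaspase gene Malt1 (r = 0.912), the synaptic vesicle protein gene Sv2b (r = 0.904), the zinc finger gene Zfp597 (r = 0.900), and Klhl18 and the kinesin gene Kif9 (r = 0.898), the last pair sharing the same 23 cytosines between them. Malt1 stood at 1.41% ± 0.411 in arsenic and 3.93% ± 1.52 in control, Sv2b at 2.41% ± 0.264 and 5.56% ± 1.79, and Zfp597 at 0.516% ± 0.396 and 5.05% ± 2.76, arsenic first. At Zfp597 the levels of control libraries 1 to 5 were 0.803%, 4.76%, 4.89%, 6.62% and 8.19%, with control library 1 lowest, as at Kdm3a. Klhl18 and Kif9 stood at 0.394% ± 0.249 in arsenic and 3.87% ± 1.26 in control. These correlations are descriptions, since all points share the libraries and their depth.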

How the data were processed

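The libraries held bisulfite-converted testis DNA, extracted with phenol and chloroform and made into libraries with a NEBNext kit, per the labels' protocols. The deposited table gives, per cytosine and library, a count of all reads and counts of methylated and unmethylated reads, in the layout methylKit writes for united libraries, per the file headers. The submitters' processing notes name methylKit 1.22.0, Bismark 0.22.3, Trim Galore 0.6.5 and build mm10, while settings, the enzyme and the handling of duplicates were not given in the sources used. Gene positions came from RefSeq (GRCm38.p6), where all 104 list symbols were found, 1 by an older name. Promoter sequences came from RefSeq for the same build, and no whole genome or exon annotation was used.

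A level is methylated over all reads in percent, summed over the cytosines of a window, and groups are given as mean ± SD over libraries. Stretches were split at gaps over 75 bp. The quasi-binomial logistic model (R 4.3.3, limma 3.58.1 to moderate dispersions, kept at 1 or above) had a group term and was fitted over all gene ends or cytosines, and it was tested on simulated data. In windows of 1000 bp the end with more covered CpGs was taken, if it had at least 3. Strand tests used all 1024 sign assignments. Python 3.11.15 gave the other values, through pandas 2.3.3 and numpy 2.4.6. Tried alternatives were windows, a coverage of 20, equal weight per cytosine, limma, a replicate block and left-out libraries. The genes named are the 5 genes, the extremes of each function list, the 5 gene ends most like them and the 3 CpGs with the highest control means per gene. The 5 genes and the lists were chosen with earlier results of these data known.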

Additional observations from a re-analysis of the deposited data

Results flagged for a closer look

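In 34 groups of 5 libraries, each group was searched for a library far from the other 4, and 4 were found. How often chance alone gives such a library was not tested for these levels, which are bounded at 0% and 100% and often tied. The groups also share libraries and reads, so nothing is read from the count of 4. At the other end of Ifngr2, control library 5 stood at 85.3% and the other control libraries at 96.4% to 100%, over 2 cytosines with 11 to 17 reads each. At the other end of Nexn, control library 4 stood at 87.5% and the other control libraries at 100%, over 2 cytosines. On the minus strand of Ifngr2, arsenic library 4 stood at 2.26% and the other arsenic libraries at 0% to 0.394%. On the plus strand of Nexn, control library 5 stood at 16.2% and the other control libraries at 4.61% to 7.58%.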

How the results depend on the processing

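The arsenic mean of each of the 5 genes was below the control mean under every window, coverage, weighting and library set tried. The genes were chosen for that order in these same libraries, so its sign was largely set beforehand. At Pik3c2a the difference was -8.37 percentage points with a coverage of at least 20 and -9.03 at CpGs covered on both strands, and at Marveld1 -1.03 within 500 bp. With 1 library left out it ranged from -6.83 to -5.95 at Pik3c2a, -7.20 to -4.58 at Ifngr2, -7.04 to -4.48 at Kdm3a, -4.23 to -3.48 at Marveld1 and -3.52 to -2.10 at Nexn.

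Strand differences with 1 library left out ranged from -5.52 to -1.34 at Pik3c2a and 1.11 to 2.57 at Nexn. They changed sign at Ifngr2 (-3.13 to 1.20, positive without control library 4) and at Marveld1 (-1.68 to 0.126, positive without control library 4 and, at 0.0356, without control library 3), and none passed under any alternative (lowest adjusted p 0.0625, Nexn, exact sign-flip test). With under 3 CpGs left on both strands, no strand value could be had for Marveld1 within 500 bp or for Ifngr2 and Marveld1 at a coverage of 20. The cause of the sign changes was not tested.

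Calls stayed at 0 gene ends and 0 cytosines with each library left out, except that limma with all libraries called 1 gene end. A fit with the replicate number as a block also called 0 gene ends and 0 cytosines. Same-numbered libraries did not deviate together (r = -0.0311 to 0.0208, best match its own number in 1 of 5). No pairing by number was seen, but such a check cannot exclude one that left no shared deviation. Depth limits single cytosines, where few reads stand behind a level.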
